A study of Mus musculus with 4 samples.

Results

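Col10a1 encodes the alpha 1 chain of type X collagen, and it is 1 of the 31053 genes counted here. Its UMIs (unique molecular identifiers, each standing for 1 captured transcript) were followed over 14181 cell barcodes from the tibia of the mouse. The library was made from 2 tibiae of 1 male mouse at postnatal day 6 with the genotype Col10a1Cre;Rosa26-Tdtomato;Irx3 +/Δ;Irx5 +/-. It served the study as a heterozygous control and was sequenced as 4 entries that the authors counted together. There was 1 library of 1 group, so no replicate and no untreated group, and the values carry no p-value and no standard error. Intervals in the text are 95% intervals and cover counting error only. They are exact apart from that of the log2 ratio, which is approximate.

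Type X collagen is a short, network-forming collagen of the growth plate. Chondrocytes of the growth plate divide, stop dividing as pre-hypertrophic chondrocytes (pre-HCs) that make Indian hedgehog, and then swell into hypertrophic chondrocytes (HCs), whose pericellular matrix holds type X collagen. HCs at the border with bone turn on mineral and matrix-degrading genes, and many of their descendants become bone-lineage cells. The Cre recombinase of this mouse is driven by Col10a1, and it switches on a tdTomato reporter that then stays on in HCs and their descendants. The reporter transcript carries WPRE, a viral element that was counted in a separate matrix of exogenous sequences. The genotype puts Cre at the Col10a1 locus itself, and the effect of that allele on the counted Col10a1 transcripts was not tested.

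In GRCm38, Col10a1 (ENSMUSG00000039462) lies on the plus strand at chr10:34389981-34397085, with 3 exons of 63, 169 and 2898 bases. Nt5dc1, on the minus strand at chr10:34288288-34418552, spans it. An annotated Nt5dc1 transcript ends at position 34397068, within the last exon of Col10a1, and the 2 genes share exon bases only there. The sources used here do not say whether the counting used strand, without which reads in that stretch cannot be told apart. The RefSeq promoter of Col10a1 in GRCm38.p6, chr10:34389731-34390030 on the plus strand, is shown because this is the gene that drives Cre here. It holds 250 bases before and 50 bases after the annotated start, and the capitals mark a TATA box.

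Col10a1 promoter: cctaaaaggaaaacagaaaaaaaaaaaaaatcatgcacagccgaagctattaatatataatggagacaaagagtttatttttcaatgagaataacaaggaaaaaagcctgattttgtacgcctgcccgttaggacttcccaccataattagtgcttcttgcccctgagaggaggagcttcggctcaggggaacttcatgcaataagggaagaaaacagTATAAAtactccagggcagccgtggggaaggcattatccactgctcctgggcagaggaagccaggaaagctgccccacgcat

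The TATAAA letters begin 32 bases before the annotated start. On either strand, 14.2% of 27025 promoters of this length held them. The other motifs searched on both strands were TGTGGT (RUNX), TGANTCA (AP-1) and TATTTTTA (MEF2), which were present in 16.9%, 7.93% and 2.71% of promoters and not in the Col10a1 window, so no matches overlapped there.

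Col10a1 was concentrated in few barcodes. It had 58325 UMIs in 2987 barcodes (21.1%), but 2322 of these barcodes (77.7%) held 1 UMI each. The 10 highest barcodes held 16.5% of all Col10a1 UMIs, the 50 highest held 57.1% and the 100 highest held 79.9%. Most barcodes with the transcript therefore carried a single copy, while 265 barcodes had at least 10 UMIs, 123 had at least 100 and 2 had at least 1000, up to 1238.

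Cells with at least 1600 genes and at most 10% mitochondrial UMIs were kept, which left 8256 cells with a median of 13957.5 UMIs. They held 91.1% of the Col10a1 UMIs. The 5925 barcodes left out held 5213 Col10a1 UMIs, and 55 of them had at least 10. Of these 55, 34 had under 1600 genes and 45 were over the mitochondrial limit. Their median mitochondrial share was 21.0%, against 3.74% in kept cells with at least 10 Col10a1 UMIs.

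The cells fell into 29 clusters, built without Col10a1, and 25 were named from marker lists that also left it out. The cluster of 105 HC-like cells had 12 of its 13 HC markers at 10 CPM or more (UMIs per 1000000 UMIs of the cells summed), among them Spp1 (15454 CPM), Ibsp (4084 CPM) and Mmp13 (1223 CPM). Phospho1, a phosphatase of mineralizing cells, was at 0. Its leading genes by fold were Cdsn, Fxyd3, Ffar4, F13a1 and Rbp4, and none of its 10 leading genes is on a marker list, so the name rests on the summed marker levels.

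Col10a1 was at 11303 CPM (11192 to 11414) in HC-like cells, which made up 105 of the 8256 cells and held 75.03% of the Col10a1 UMIs of kept cells. Pre-HC-like cells, 990 in number, came next at 429 CPM (421 to 437) and held 20.7%. Within them, a cluster of 394 cells led by Cdkn1c and Ihh was at 844 CPM (827 to 860), and a cluster of 596 cells led by Il17b and Gdf10 among others was at 67.4 CPM. The intervals of these levels did not overlap. At least 10 Col10a1 UMIs were held by 81 of the 394 cells and 23 of the 596. Without such cells, a limit set after seeing the data, the 2 clusters were at 20.3 and 17.9 CPM. The same measure gave 18.7 CPM in blood cell-like cells. How many cells were called pre-HC-like varied with the processing, from 339 to 990, and their level varied with it, from 429 to 1028 CPM. Taken as a mean over the 990 cells in place of a sum, the level was 349 CPM.

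All other named classes were at 11.3 to 24.6 CPM. The order below the pre-HC-like cells was blood cell-like (24.6 CPM, 3106 cells), pericyte or smooth muscle-like (23.7), stromal progenitor-like (23.1), resting chondrocyte-like (18.96), blood vessel-like (16.5), fibroblast-like (15.5), proliferating chondrocyte-like (13.7), osteoblast-like (13.7), maturing chondrocyte-like (13.6) and osteoclast or macrophage-like (11.3). The counting intervals of each pair of neighbours in this order overlapped. Blood cells are not known to make type X collagen, and the 11 blood cell-like clusters were at 17.3 to 54.7 CPM. The highest of these values rests on 1 cell with 162 UMIs, and without the 3 blood cell-like cells of at least 10 UMIs, a limit set after seeing the data, the clusters were at 10.3 to 32.2 CPM. No named class outside the HC-like and pre-HC-like cells was above either range. Several were lower than the blood cell-like class as a whole (23.0 to 26.2 CPM), among them osteoblast-like cells (11.4 to 16.3 CPM). Osteoclast or macrophage-like cells were also lower (9.06 to 13.9 CPM). Median depth also differed, at 11274 UMIs in blood cell-like, 18573 in osteoblast-like and 17366 in osteoclast or macrophage-like cells. Blood vessel-like cells, lower than the blood cell-like class too, had 8985. Whether these levels stem from free RNA, and the part of depth in them, was not tested. Among the unnamed clusters, one of 115 cells was at 82.2 CPM and one of 77 cells at 66.0 CPM, above the blood cell-like clusters. Both were left unnamed for their doublet calls (75.7% and 48.1% of cells). Without their cells of at least 10 UMIs they were at 10.5 and 17.4 CPM.

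**Figure D1:**
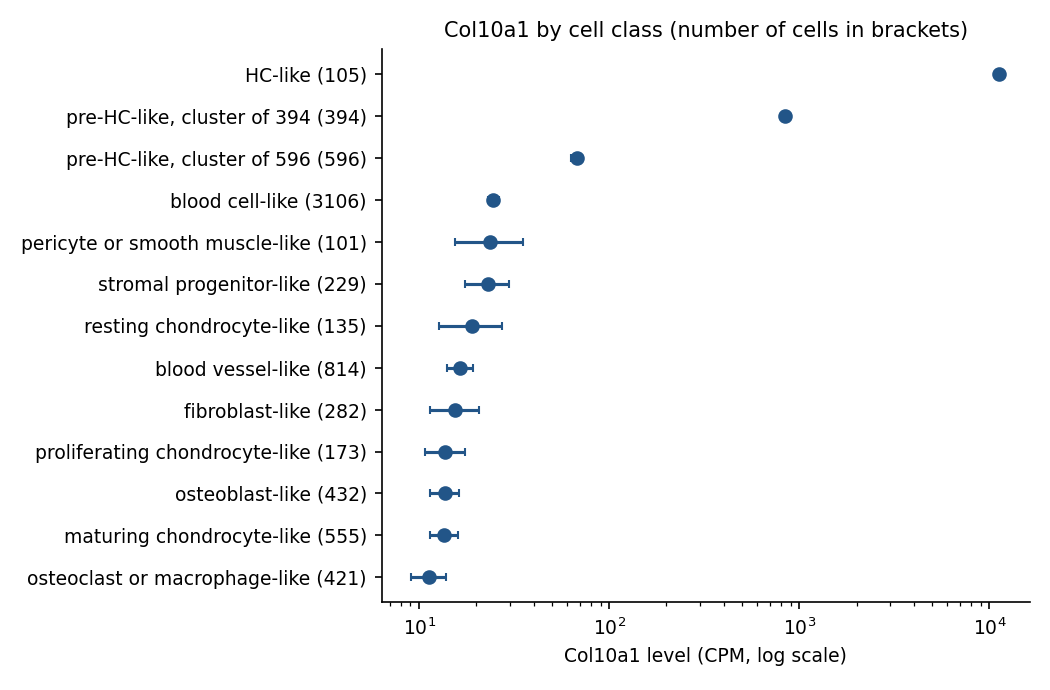
Col10a1 level (CPM, log scale) of each named class, with the pre-HC-like cells as 2 clusters. Points are sums over cells and bars are exact 95% Poisson intervals. HC-like cells stand at 11303, the pre-HC-like clusters at 844 and 67.4, and all other classes between 11.3 and 24.6.

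The share of cells with a Col10a1 UMI gave the same order at the top. After each cell was thinned to 5000 UMIs, 93.3% (86.7% to 97.3%) of HC-like cells kept at least 1 UMI. The share was 24.2% in the pre-HC-like cluster of 394 cells, 11.1% (8.68% to 13.9%) in that of 596, and 17.6% (15.3% to 20.1%) over all pre-HC-like cells. It was 10.0% (8.92% to 11.2%) in blood cell-like cells, and 0% to 17.1% over their 11 clusters. The intervals of the cluster of 596 and of blood cell-like cells overlapped. Osteoblast-like cells had 6.71% (4.54% to 9.50%) and maturing chondrocyte-like cells 7.40% (5.36% to 9.91%), both at or below the blood cell-like share. Thinning left out 360 of the kept cells. Without thinning the shares were 96.2% in HC-like, 34.7% in pre-HC-like and 19.7% in blood cell-like cells, at median depths of 33065, 24726.5 and 11274 UMIs.

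Cells with many Col10a1 UMIs lay almost entirely in these same classes. Of the 210 kept cells with at least 10 UMIs, 94 were HC-like and 104 pre-HC-like. The blood cell-like class had 3, up to 162 UMIs in 1 cell, the osteoblast-like class 1 with 23 UMIs, and the unnamed clusters 5. Of the 210 cells, 6 were doublet calls. Of the 990 pre-HC-like cells, 646 had no Col10a1 UMI, and the most in 1 of them was 628.

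**Figure D2:**
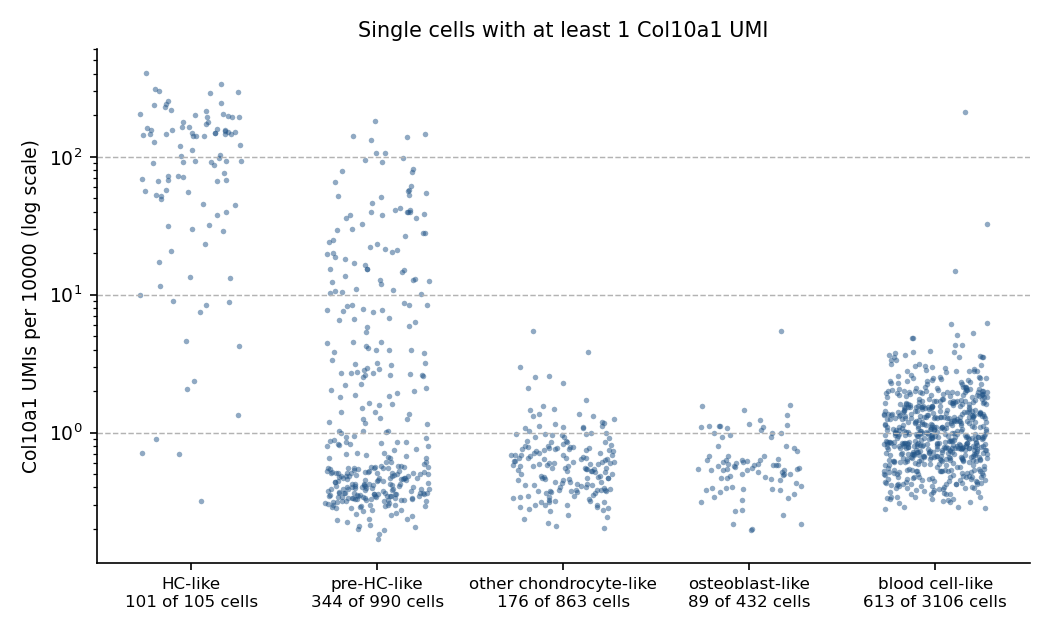
Col10a1 UMIs per 10000 UMIs of a cell (log scale) in cells with at least 1 Col10a1 UMI, by class; each point is a cell, spread sideways at random, and dashed lines mark 1, 10 and 100. Most HC-like cells lie above 10, the pre-HC-like cells spread over the whole range, and the other groups lie mostly near the value of a single UMI.

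HC-like cells varied widely among themselves. Their lowest value was 0, the quartiles were 31.6, 93.0 and 158 Col10a1 UMIs per 10000, and the highest was 408. Of the 105 cells, 18 were under 10 per 10000, 37 were at 10 to 100 and 50 were at 100 or more. The next values are sums over these 3 sets of cells; the lowest set holds fewer than 20 cells.

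Only 6 of the 13 HC markers were compared over these sets. Of these 6, Mmp13, Spp1 and Ibsp were lower where Col10a1 was higher, with the largest step from the lowest to the middle set. For Spp1 and Ibsp the step from the middle to the highest set was small. Mmp13, the collagenase that clears cartilage matrix, was at 5766 CPM in the lowest set, 1089 in the middle and 272 in the highest. Spp1 (osteopontin) was at 60229, 10637 and 8739 CPM, and Ibsp (bone sialoprotein), a protein of mineralizing matrix, at 18400, 2665 and 1845 CPM. These 3 markers were thus lowest where the HC-like cells held most Col10a1. Alpl did not follow them, at 566, 253 and 523 CPM. Vegfa was at 205, 199 and 178 CPM, and Cd200, a surface glycoprotein, at 161, 62.3 and 67.9 CPM.

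Acan, Col2a1, Hspa5, P4ha2 and Ihh ran the other way. Acan, the core protein of aggrecan, was at 478, 1882 and 6388 CPM, and Col2a1, which encodes type II collagen, at 3713, 5782 and 13669 CPM. Hspa5, the main chaperone of the endoplasmic reticulum, was at 619, 2285 and 6753 CPM. P4ha2, a collagen prolyl hydroxylase subunit, was at 63.4, 263 and 406 CPM, and Ihh at 19.5, 67.5 and 167 CPM. The order was the same for each of these 5 genes, but they were chosen after values were seen, so their agreement is no test. Of other genes compared over these sets, Pth1r kept this order (563, 681 and 736 CPM). Cds1 (41.4, 34.1 and 156 CPM) and Cdsn (112, 577 and 493 CPM) did not.

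Across the 105 HC-like cells, the Pearson correlation with Col10a1 was 0.79 for Acan, 0.75 for P4ha2, 0.60 for Hspa5 and 0.52 for Col2a1. It was -0.62 for Mmp13, -0.44 for Spp1, -0.35 for Ibsp and 0.04 for Alpl. Among HC markers not compared over the sets, it was 0.47 for Bmp6, -0.15 for Mef2c and -0.28 for Runx2. All points share 1 library, and levels per cell are shares of that cell's total. The lowest set also had the lowest median depth (23487 UMIs, against 39548 and 34168) and the highest median mitochondrial share (6.62%, against 4.89% and 3.61%). Of genes of other cells, S100a8 of neutrophils was at 3318, 720 and 935 CPM from the lowest to the highest set, Hbb-bs of red blood cells at 188, 2356 and 166 CPM, and Col1a1, the chief collagen gene of bone, at 1336, 213 and 61.7 CPM. The part of depth, mitochondrial share and RNA of other cells in these differences was not tested.

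**Figure D3:**
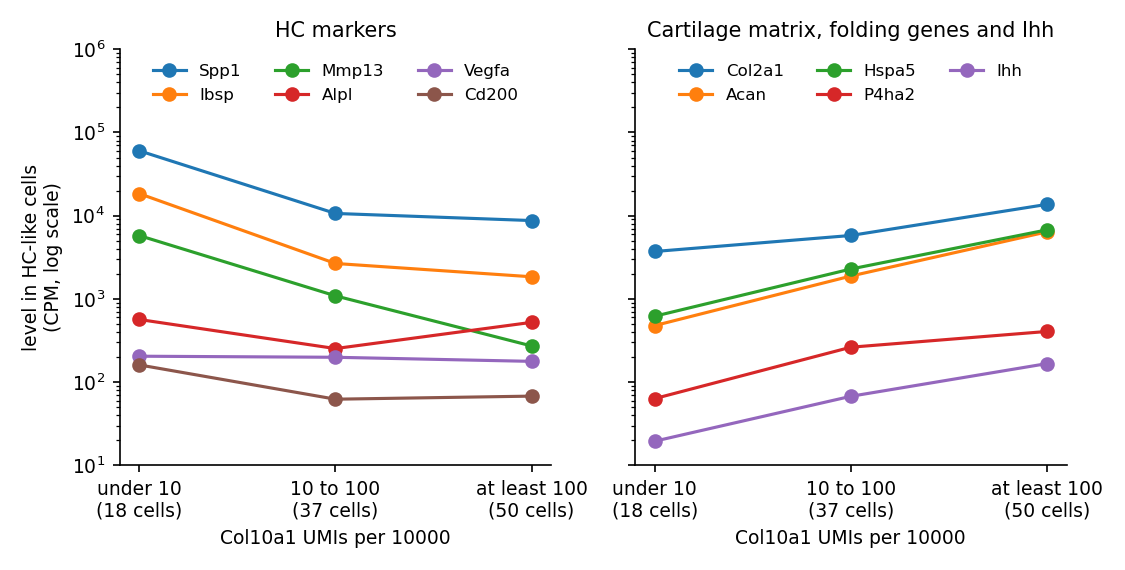
Levels of 6 HC markers (left) and of 5 other genes (right; CPM, log scale) in HC-like cells with under 10, 10 to 100 and at least 100 Col10a1 UMIs per 10000 (18, 37 and 50 cells). Each point is a sum over the cells of a set. Mmp13 falls from 5766 to 272, Alpl is lowest in the middle set, and Acan rises from 478 to 6388.

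The 1958 chondrocyte-like cells of all named kinds held 96.1% of the Col10a1 UMIs of kept cells. By Col10a1 level, 1337 of them had no UMI, 356 had under 1 per 10000, 107 had 1 to 10, 101 had 10 to 100 and 57 had at least 100. HC-like cells numbered 4, 4, 10, 37 and 50 in these ranges, and pre-HC-like cells 646, 202, 71, 64 and 7. Above 10 per 10000 there were no other chondrocyte-like cells. The median depth rose from 20731 UMIs in cells without Col10a1 to 33517 UMIs in the highest range.

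Among regulators of hypertrophy, Ihh, Pth1r and Mef2c were highest at 10 to 100 Col10a1 UMIs per 10000. Ihh, the pre-HC signal, was at 30.2 CPM without Col10a1, 160 CPM at 1 to 10 per 10000, 183 CPM at 10 to 100 and 164 CPM at 100 or more. Pth1r, the receptor through which PTHrP holds back hypertrophy, was at 361, 1353, 1505 and 802 CPM in these ranges. Mef2c, a transcription factor of hypertrophy, was at 209, 563, 643 and 337 CPM. The 3 genes were thus higher in every one of these ranges than in cells without Col10a1 and fell back, slightly for Ihh, at the top. The class mix changed as well: pre-HC-like cells were 64 of 101 at 10 to 100 and 7 of 57 at 100 or more. By sets under 10, at 10 to 100 and above, Pth1r was at 563, 681 and 736 CPM within HC-like cells. Within pre-HC-like cells it was at 670, 2029 and 1389 CPM. Ihh and Pth1r are on the pre-HC marker list and Mef2c on the HC list, so these levels are not independent of the naming. The part of the class mix was not tested.

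Runx2, which encodes a factor that can activate Col10a1, did not follow it. It was at 132 CPM in cells without Col10a1, 131 CPM at 1 to 10 per 10000, 113 CPM at 10 to 100 and 72.7 CPM at 100 or more. Foxa2, which encodes a forkhead factor of hypertrophy, was at 6.62, 21.9, 23.1 and 7.12 CPM. Sox9, the master factor of cartilage, fell from 1150 CPM to 222 CPM in the highest range, and Sox5 from 184 to 15.2 CPM.

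The counts of listed genes refer to differences of at least 2-fold from chondrocyte-like cells without Col10a1, among genes with at least 10 CPM in either set. In the highest range, 22.1% of 8079 tested genes were higher by this measure and 9.59% were lower. Of 21 tested regulators (25 listed), 3 were higher, namely Ihh, Pth1r and Ddit3, a stress-response factor. A further 7 were lower, namely Runx3, Foxa3, Dlx5, Sox5, Sox9, Hdac4 and Fgfr3. The median log2 ratio of the regulators was -0.49, against 0.37 over all tested genes. At 10 to 100 per 10000, where 9.42% of tested genes were higher and 5.78% lower, 5 of 22 regulators were higher (Mef2c, Mef2d, Foxa2, Ihh and Pth1r) and 2 were lower (Sox5 and Hdac4). At 1 to 10, with 4.09% higher and 2.78% lower over all genes, the same 5 were higher and none was lower.

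Several genes of the hypertrophic matrix and of mineral were higher in cells with more Col10a1. In the highest range 6 of 13 tested (15 listed) were at least 2-fold higher, against 22.1% of all tested genes, and none was lower. The median log2 ratio was 0.88, against 0.37 over all tested genes. The 6 were Mmp13, Ibsp, Spp1, Alpl, Ank and Timp3. All but Timp3 are also markers from which the HC-like cells were named, and 50 of the 57 cells in this range were HC-like. The count of 6 is thus not independent of the naming. Alpl, the alkaline phosphatase of mineralization, was at 33.8 CPM without Col10a1, 208 CPM at 1 to 10 per 10000, 387 CPM at 10 to 100 and 559 CPM at 100 or more. It thus rose with each range, and so did Timp3, an inhibitor of metalloproteinases, at 122, 195, 322 and 625 CPM. Mmp13 peaked lower down, at 65.1, 689, 464 and 246 CPM. Vegfa, the growth factor that draws vessels into cartilage, was at 131 CPM without Col10a1 and 172 CPM in the highest range.

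Of 20 collagen folding and secretion genes, 6 were at least 2-fold higher in the highest range (Creb3l1, Mia3, Hspa5, Xbp1, Pdia4 and Calr) and 4 lower (Plod1, Plod2, Serpinh1 and Creb3l2). The share that was higher is near the 22.1% of all tested genes, and the median log2 ratio of 0.24 is below the 0.37 of all tested genes, so the list as a whole did not stand apart as higher. The share that was lower, 4 of 20, is above the 9.59% of all tested genes. Hspa5 was at 891 CPM without Col10a1 and 6563 CPM in the highest range, and Calr, the chaperone calreticulin, at 970 and 2371 CPM. Mia3, which loads large collagens into transport vesicles, was at 55.1 and 211 CPM. Among the lower genes, Plod2, a lysyl hydroxylase, was at 943 and 223 CPM, and Serpinh1, the collagen chaperone HSP47, at 2114 and 1013 CPM.

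Cartilage matrix genes were lower. Of 13 in the highest range, 10 were at least 2-fold lower, against 9.59% of all tested genes, and none was higher. The median log2 ratio was -1.58, against 0.37 over all tested genes. All but Col11a1 and Comp are also on the marker lists of chondrocyte classes, and 50 of the 57 cells in this range were HC-like. The count of 10 is thus not independent of the naming. Col2a1 was at 47111 CPM without Col10a1, 36463 CPM at 10 to 100 per 10000 and 17045 CPM at 100 or more. Cnmd, the vessel-inhibiting chondromodulin, fell from 3159 to 345 CPM. Acan was at 6518 CPM and 6455 CPM, a log2 ratio of -0.01, and Hapln1, the link protein that ties aggrecan to hyaluronan, at 5045 and 4740 CPM. These 2 genes with Comp were the members that did not reach the 2-fold difference.

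Relatives of type X collagen did not accompany it. Col8a1 and Col8a2, which encode the other short network-forming collagen, type VIII, were under 10 CPM in every range. C1qtnf3, whose product shares the C1q-like domain, was at 1527 CPM without Col10a1 and 77.3 CPM in the highest range, and C1qtnf6 at 56.4 and 34.6 CPM. Of the bone matrix genes, 5 were tested in the highest range, where 22.1% of all tested genes were higher and 9.59% lower. Phex, an osteocyte endopeptidase, was higher, at 15.8 CPM against 1.54 CPM. Col1a1 and Serpinf1 were lower, Col1a1 at 61.0 against 243 CPM. At 10 to 100 per 10000, 2 of 6 tested were higher (Ifitm5 and Phex), against 9.42% of all tested genes. At 1 to 10, 3 of 6 were higher (Bglap, Bglap2 and Ifitm5), against 4.09%. None was lower in these 2 ranges. In osteoblast-like cells Bglap was at 10025 CPM, Bglap2 at 4240 and Ifitm5 at 707. In HC-like cells they were at 22.1, 15.9 and 15.3 CPM, and in blood cell-like cells at 16.7, 8.20 and 2.60. The part of RNA of other cells in these counts was not tested. Nt5dc1, the gene on the other strand, was at 7.31 CPM without Col10a1, 9.67 CPM at 1 to 10 per 10000, 18.7 CPM at 10 to 100 and 13.2 CPM at 100 or more, the last from 26 UMIs. It was thus highest at 10 to 100, with a correlation of 0.12 with Col10a1 across the cells.

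**Figure D4:**
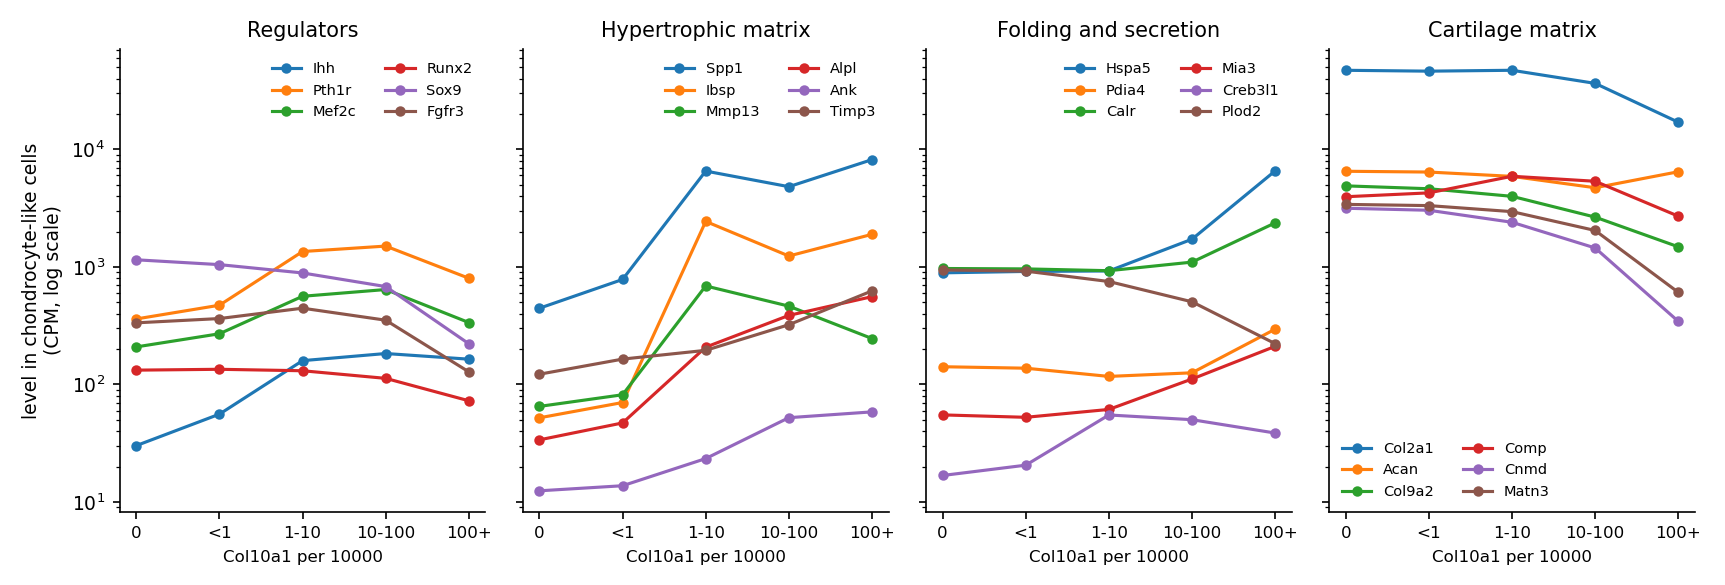
Levels of 24 listed genes (CPM, log scale) over ranges of Col10a1 UMIs per 10000 in 1958 chondrocyte-like cells; points are sums over the 1337, 356, 107, 101 and 57 cells of a range. Pth1r and Mef2c peak at 10 to 100, Hspa5 rises mainly in the last range, and Cnmd falls from 3159 to 345.

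Genes whose level went with Col10a1 across the 1958 chondrocyte-like cells were ranked by Pearson correlation of log-scaled levels, over 12370 genes found in at least 2% of these cells. The median correlation was 0.02. The highest was 0.71, for Cds1, an enzyme of phospholipid synthesis, followed by Cdsn (0.67), the adhesion protein corneodesmosin known from skin, and F13a1 (0.66), the transglutaminase subunit of factor XIII. Lox (0.65) and Loxl4 (0.55) encode lysyl oxidases, which cross-link collagen. The others of the 20 highest were Ddit4l, Anxa3, Alpl, Ffar4, 2200002D01Rik, Bmp6, Alox12, Fxyd3, Map1lc3b, Ptgis, Fabp3, Nacad, Unc5b, Tinagl1 and Car6, all at 0.55 or more. Ffar4 and 2200002D01Rik reached the limit of 2% of cells only with HC-like cells counted, so their place in the ranking rests on those cells.

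Cds1 was at 1.51 CPM in cells without Col10a1, 57.1 CPM at 10 to 100 per 10000 and 154 CPM at 100 or more. In osteoblast-like cells it was at 0.33 CPM. Cdsn went from 6.08 to 239 and 458 CPM over the same ranges, and Bmp6, a bone morphogenetic protein, from 4.43 to 54.5 and 138 CPM. Cds1 was thus near absent from chondrocyte-like cells without Col10a1 and from osteoblast-like cells. Lox differed in the last respect, at 788 CPM in osteoblast-like cells and 675 CPM in the highest range. From cells without Col10a1 to the highest range, Ffar4, a receptor of long-chain fatty acids, went from 0.34 to 220 CPM, Fabp3, a fatty acid carrier, from 5.39 to 141 CPM, Alox12, a lipoxygenase, from 0.62 to 91.5 CPM, and Ptgis, prostacyclin synthase, from 16.5 to 324 CPM. Map1lc3b, a protein of autophagosomes found in 96.1% of the cells, was at 227 CPM without Col10a1 and 1494 CPM in the highest range.

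The 10 lowest correlations were those of Cnmd (-0.68), H19 (-0.67), Fmod, Scrg1, Itm2a, C1qtnf3, Col9a3, Matn3, Col9a2 and Mia (-0.53). H19, an imprinted noncoding RNA, was at 2962 CPM without Col10a1 and 139 CPM in the highest range, and Fmod, a small proteoglycan that binds collagen fibrils, at 1456 and 92.0 CPM. With HC-like cells set aside, the correlation was 0.64 for Cds1 and 0.61 for Alpl, but 0.19 for Cdsn and 0.07 for Car6. Within HC-like cells Col9a3 had a correlation of 0.63 and Col9a2 of 0.55, opposite in sign to those across all chondrocyte-like cells. Col10a1 itself had a correlation of 0.26 with the log of a cell's depth and 0.04 with its mitochondrial share. Of the promoters of the 20 genes, 17 matched the RefSeq table and 1, that of Ddit4l, held TATAAA.

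Col10a1 and the reporter were compared next, since Col10a1 drives the Cre that turns the reporter on. WPRE had 19347 UMIs in 3098 of the barcodes of the gene matrix and tdTomato 344 UMIs in 255 of them. Cells with more than 14 WPRE UMIs were taken as above the cutoff. The study chose this cutoff to meet its experimental frequency of reporter-positive HCs. It also lay at a saddle point of the WPRE counts. The size of the share in HC-like cells, and in the ranges they fill, was thus partly set in advance. The share above the cutoff was 0.898% in chondrocyte-like cells without Col10a1, 1.12% under 1 per 10000, 11.2% (5.93% to 18.8%) at 1 to 10, 40.6% (30.9% to 50.8%) at 10 to 100 and 77.2% (64.2% to 87.3%) at 100 or more. The share with any WPRE UMI was 19.8%, 22.8%, 23.4% and 70.3% in the first 4 ranges, and every cell of the highest range had one. Reporter counts thus stayed near their low level up to 1 per 10000, and the median WPRE count was 0 below 10 per 10000, 7 at 10 to 100 and 30 above. tdTomato was found in 0.972%, 0.843%, 7.48%, 29.7% and 43.9% of cells. These ranges differ in their mix of classes. Above the cutoff were 17 of 18 HC-like cells under 10 per 10000, 30 of 37 at 10 to 100 and 42 of 50 above. For pre-HC-like cells the counts were 2 of 919, 11 of 64 and 2 of 7. Within HC-like cells the share above the cutoff thus did not rise with Col10a1.

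The correlation of Col10a1 with WPRE across the 1958 chondrocyte-like cells was 0.69 by Pearson and 0.28 by Spearman. It differed by class, at 0.57 in the pre-HC-like cluster of 394 cells, 0.03 in that of 596, -0.29 in HC-like cells and 0.07 in osteoblast-like cells. In the cluster of 394, 15 cells above the cutoff were at 5285 CPM of Col10a1 (5100 to 5476), and 379 cells at or below it at 617 CPM (603 to 632). In HC-like cells, 89 cells above the cutoff were at 10852 CPM and 16 at or below it at 15671 CPM, but the medians per cell were 93.0 and 99.2 UMIs per 10000. The sum over the 16 cells was 5165 UMIs, of which 1 cell held 911. Median depth was 35646 UMIs in the 89 cells and 19969 in the 16, and its part in this difference was not tested, as WPRE was cut at a fixed number of UMIs.

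Col10a1 without the reporter was frequent at moderate levels. Of 98 kept cells with 10 to 99 Col10a1 UMIs, 17 were above the WPRE cutoff (17.3%, 10.4% to 26.3%) and 50 had no WPRE UMI. Of 112 cells with at least 100, 78 were above it (69.6%, 60.2% to 78.0%) and 10 had none. The reverse was also seen. Of 423 kept cells above the cutoff, 251 (59.3%) had no Col10a1 UMI and 95 (22.5%) had at least 10. All but 2 of those 95 were HC-like (79) or pre-HC-like (14).

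In osteoblast-like cells, 140 of 432 (32.4%) were above the WPRE cutoff. Their Col10a1 level was 13.2 CPM (40 UMIs), against 13.9 CPM (83 UMIs) in the 292 at or below it, a log2 ratio of -0.07 with an interval from -0.57 to 0.44. None of the 140 cells had more than 2 Col10a1 UMIs. Of the 83 UMIs at or below the cutoff, 1 cell held 23. Without that cell, left out after seeing the data, the log2 ratio was 0.36. Neither the 13.2 nor the 13.9 CPM is above the range of the blood cell-like clusters, so Col10a1 in reporter-marked osteoblast-like cells was not detectable above that range at this depth. Most blood cell-like clusters were shallower. The deepest (median 17925 UMIs) was at 17.8 CPM. The next (16845 UMIs) was at 17.3 CPM, or 10.3 without its 1 cell of at least 10 UMIs. At this cutoff no difference between marked and unmarked cells was detectable. Setting cells with any WPRE UMI against those with none gave a log2 ratio of 0.81, for which no interval was computed. Some blood cell-like cells held a WPRE UMI too: of 3103 at or below the cutoff, 2517 had none. Any WPRE UMI is thus a looser mark of the reporter, and the part of free RNA in that ratio was not tested. Stromal progenitor-like cells were at 17.2 CPM in 38 cells above the cutoff and 24.4 CPM in 191 others. An unnamed cluster of 541 cells led by Tnc, Wif1 and Mmp13 was at 13.5 CPM in 115 cells and 16.2 CPM in 426 others.

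**Figure D5:**
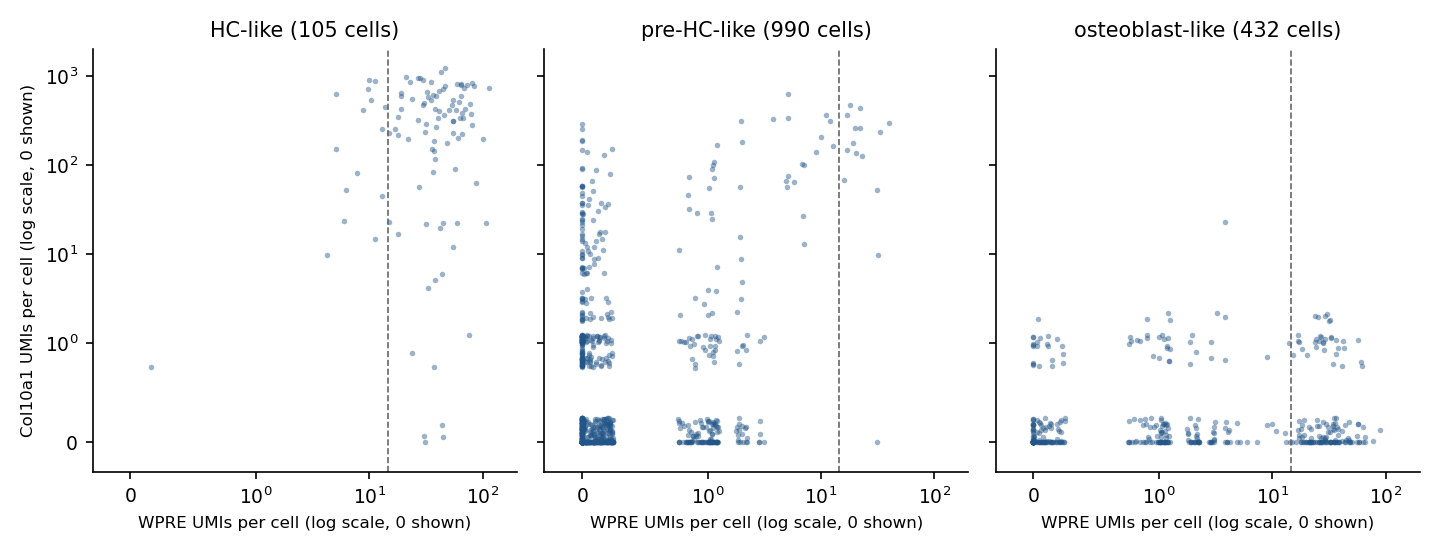
Col10a1 against WPRE UMIs per cell (both log scales with 0 shown, points jittered) in 105 HC-like, 990 pre-HC-like and 432 osteoblast-like cells; each point is a cell and the dashed line is the cutoff of more than 14 WPRE UMIs. Osteoblast-like cells right of the line have at most 2 Col10a1 UMIs, and many pre-HC-like cells with over 10 Col10a1 UMIs have no WPRE.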

How the data were processed

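The values are UMI counts per gene and barcode as deposited by the authors, not normalized. The sources name Cell Ranger 3.1.0 and mm10, with the reporter sequences added. Their annotation release is not given in the sources. Gene and exogenous matrices were joined by barcode. Depth ranged from 500 to 85279 UMIs per barcode (median 8235), and how far that limits precision is given by the intervals. Cells with at least 1600 genes, the study's minimum, at most 10% mitochondrial and at most 50% ribosomal protein UMIs were kept. Clustering used Python 3.11.15 and scanpy 1.11.5 (2000 variable genes without Col10a1, 30 components, 20 neighbours, Leiden resolution 1, seed 1). Names came from the list best represented among a cluster's 10 leading genes, otherwise from the highest mean z-score (at least 1). A name needed 3 markers at 10 CPM, at most 40% doublet calls and agreement of leading genes with the list. Proliferating classes had Top2a in over 50% of cells. The naming rule was set after the clusters were seen, 4 clusters (913 cells) stayed unnamed, and names may differ from the study's. Scrublet (expected rate 10%) called 588 barcodes (4.15%), which were kept, since no doublet removal is stated. CPM are UMIs summed over cells per 1000000. Log2 ratios had 1 CPM added. Intervals are Poisson for levels, Clopper-Pearson for shares and a normal approximation for the log2 ratio. For thinning, UMIs were drawn without replacement. Correlations used counts per 10000 on a log scale. The WPRE cutoff of more than 14 is the study's. Genes named are the 20 highest and 10 lowest correlations and the members of fixed lists. Motifs, the genes compared within HC-like cells and their sets were chosen after values were seen. The gene, lists and tests were chosen with earlier results of these data known. Steps were tested on simulated data. Alternatives varied cell limits, clustering, doublets, thinning, the WPRE cutoff, the added CPM and the correlation.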

Additional observations from a re-analysis of the deposited data

Results flagged for a closer look

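Other exogenous sequences carried a signal outside the comparisons above, over a limit of 3 counts. Cre had 6 UMIs in 6 barcodes, all with a Col10a1 UMI and 5 with at least 10, and 3 of the barcodes were HC-like cells, with 52, 537 and 896 Col10a1 UMIs. EGFP, which the labelled genotype does not name, had 60 UMIs in 53 barcodes of the gene matrix. Of these, 18 had at least 10 Col10a1 UMIs, 26 were above the WPRE cutoff, 13 were HC-like, 16 were osteoblast-like and 0 were blood cell-like.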

How the results depend on the processing

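No paired analysis was possible because the 4 entries were counted together as 1 library and no test was made, and for the same reason no entry could be left out. Of 127 alternative values for 11 results, 89 kept within the counting interval, within 0.1 for a correlation or within 1.5 times for a count. The other 38 moved. No reversal could be scored, since only the osteoblast-like log2 ratio was eligible and its interval included 0. The HC-like level was 10955 CPM as a mean over cells, 11159 with at least 1000 genes, 12818 and 11078 with at most 5% and 20% mitochondrial UMIs, and 12526 with 3000 variable genes. The pre-HC-like level was 349 CPM as a mean over cells, 965 and 497 with at least 1000 and 2000 genes, 549.9 and 922 at 5% and 20% mitochondrial UMIs, 1028 and 572 at resolution 0.6 and 1.5, 604 with 3000 variable genes, 483 with Col10a1 among them and 671 without doublet calls, while the class held 339 to 990 cells. The share of pre-HC-like cells with a UMI was 37.7% and 21.6% for these gene minimums, 28.3% and 36.6% for the mitochondrial limits, 36.3% and 23.2% for the resolutions, 22.7% with 3000 variable genes and 26.5% without doublet calls. It was 15.3% thinned to 3000 UMIs, 10.7% for at least 2 UMIs and 34.7% not thinned, where blood cell-like cells had 6.77%, 1.08% and 19.7%. HC-like cells had 98.8% with 3000 variable genes. Chondrocyte-like cells held 95.7% and 96.4% of Col10a1 UMIs with 1000 and 2000 genes, 96.6% and 95.8% at 5% and 20% mitochondrial UMIs, 95.3% with 3000 variable genes and 97.0% without doublet calls. The osteoblast-like log2 ratio was 0.81 when cells with any WPRE UMI were set against those with none; other settings gave -0.55 to 0.39, some above 0 and some below. The cause of these moves was not tested. The correlation with WPRE was 0.28 by rank and 0.68 to 0.75 otherwise. Of the 20 genes most like Col10a1, 14 to 19 remained under each alternative. The alternative without cells of 10 or more Col10a1 UMIs was chosen after seeing the data and gave 9.07% of blood cell-like cells and a ratio of 0.36. Levels near 1 UMI per cell are limited by depth, and the part of free RNA in them was not tested.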
